A study of Homo sapiens with 96 samples.

Results

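HNRNPH1, HNRNPH3, HNRNPF and GRSF1 encode related RNA-binding proteins that recognise runs of G, and their own transcripts were followed here in lung adenocarcinoma cells in which arginine methylation had been inhibited. Every splicing event listed under these 4 gene symbols in the deposited splicing tables was taken, which gave 160 of the 239104 distinct events and 4 of the 14359 genes. HNRNPH1 contributed 89 events, HNRNPH3 38, HNRNPF 11 and GRSF1 22. By type there were 95 skipped exons (SE), 33 mutually exclusive exon pairs (MXE), 14 alternative 5′ splice sites (A5SS), 8 alternative 3′ splice sites (A3SS) and 10 retained introns (RI), 7 of them in HNRNPH1.

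The hnRNP H and F proteins bind RNA through quasi-RNA recognition motifs, domains that enclose short stretches of G, and they raise or lower the use of nearby exons and introns depending on where they bind. GRSF1 carries the same kind of domain and is best known for its part in RNA handling in mitochondria. Splicing regulators often act on their own transcripts, and a retained intron or a frame-shifting exon in such a transcript can keep it in the nucleus or lead to its decay. The protein arginine methyltransferases (PRMTs) place methyl groups on arginines of many RNA-binding proteins, with Type I enzymes making the asymmetric dimethyl mark and PRMT5 most of the symmetric one.

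Poly(A)-RNA was sequenced from A549 cells, a human lung adenocarcinoma line, and 30 libraries in 10 groups of 3 were used. Cells received 1 µM GSK591, which inhibits PRMT5, for 2, 4 or 7 days, 1 µM MS023, which inhibits Type I PRMTs, for 2, 4 or 7 days, or both inhibitors at 1 µM each for 2 or 4 days. Controls received 0.01% DMSO for 4 or 7 days. The tables set the 2-day and 4-day inhibitor groups against DMSO at 4 days and the 7-day groups against DMSO at 7 days, whose columns carry no day and were assigned to it because no other control of that day is among the labels, so that a 2-day difference also holds 2 more days of culture in the control. Every group is of 1 cell line, and nothing in the labels says that the 3 libraries of a group came from separate cultures. The p-values therefore measure the spread between libraries, which may be technical. In the test the spread of each event is drawn towards that of all events of its type. Very small p-values thus also rest on this moderation and on read depth. The epithelial genes KRT8, KRT18, CDH1 and EPCAM had reads in their events in every group, with 951352 to 2511794 reads summed over the list, against 0 to 17 for blood, 0 to 4 for endothelial and 31 to 334 for fibroblast genes. KRT8 had 868545 to 1683581 reads and KRT18 55448 to 824819, while CDH1 had 1308 to 3278 and EPCAM 21 to 746. KRT19, also on the epithelial list, had no listed event. Of the blood, endothelial and fibroblast lists 1 gene each had a listed event. Retained-intron events of all genes together drew 3.15e+06 to 5.22e+06 reads in each library.

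For each event the tables give reads that include a segment and reads that skip it, and from these Ψ was computed, the share of transcripts that include the segment after division by the effective length of each form. The difference ΔΨ is the mean of the inhibitor libraries minus the mean of the DMSO libraries, given with its standard error, and group means are given ± SD with n = 3. Library values are listed in the order in which the tables hold them, as libraries a, b and c, and the order carries no pairing. Differences were tested by a quasi-binomial model with spread moderated across all events of a type, wherever every library had at least 10 reads for the event, and a difference with an adjusted p under 0.05 is called. Of the 160 events 149 could be tested in at least 1 comparison with DMSO and 38 were called in at least 1. These were 24 in HNRNPH1, 10 in HNRNPH3, 2 in HNRNPF and 2 in GRSF1. The matching share of all events is not given here, and shares for single comparisons follow below. Of the 11 events that were not tested, 9 belonged to HNRNPH1 and 2 to GRSF1.

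After GSK591 most of the tested retained introns of HNRNPH1, HNRNPH3 and GRSF1 rose, and none was called lower. Some HNRNPH1 introns overlap and share reads, as described below, so the intron counts here and below are not of separate measurements. At 2 days 8 of the 9 tested were called, all higher, where 26.4% of all retained introns were called and 24% were called higher. At 4 days it was again 8 of 9, all higher, beside 38.2% called and 33.9% higher among all retained introns, and at 7 days 7 of 9, all higher, beside 27.9% and 21.8%. Median ΔΨ over the 9 introns was 0.0761, 0.156 and 0.143 at 2, 4 and 7 days. The other event types moved in both directions: 10 of 56 were called at 2 days (4 higher, 6 lower), 10 of 57 at 4 days (6 higher, 4 lower) and 12 of 67 at 7 days (5 higher, 7 lower), beside 6.33%, 10.3% and 8.19% of all such events.

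With MS023 some intron events were called lower and 1 was called higher. At 2 days 4 of 9 were called, 3 of them lower, where 5.65% of all retained introns were called and 4.21% were called lower. At 4 days 1 of 9 was called, higher, beside 7.17% called and 5.6% called lower among all, and at 7 days 4 of 10, 3 of them lower, beside 11.4% and 9.49%. The event that was higher was the same at each of these times, the HNRNPH1 span from exon 10 to exon 12. As described below, its Ψ is not intron retention alone. Of the other event types 4 of 74, 7 of 58 and 6 of 61 were called at 2, 4 and 7 days, beside 3.08%, 3.63% and 4.49% of all. By limma on log2 odds, which weighs every library alike whatever its reads, none of the member events was called under MS023 at 2, 4 or 7 days, and 2, 8 and 7 of them had an unadjusted p under 0.05.

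With both inhibitors 6 of 9 introns were called at 2 days, all higher, beside 34.7% of all retained introns called and 29.7% called higher, and 8 of 10 at 4 days, all higher, beside 39.7% and 33.6%. Other event types gave 20 calls in 88 tests at 2 days (8 higher, 12 lower) and 17 in 63 at 4 days (7 higher, 10 lower), beside 12.6% and 13.8% of all. Over all 8 comparisons with DMSO the members' introns gave 46 calls. By limma on log2 odds 31 of these 46 were called, and 39 of 46 were called in each of the 6 fits that leave out 1 library. The named exon and splice-site events gave 65 calls, of which limma called 5 and every fit without 1 library called 54. No alternative 3′ splice site of the members was called in any of the 36 tests by either method. At an unadjusted p under 0.05 there were 3 tests by the quasi-binomial model and 0 by limma. Among all alternative 3′ splice sites the calls ran from 154 of 6310 with MS023 at 2 days to 777 of 6304 with both inhibitors at 4 days.

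HNRNPH1 lies on the reverse strand of chromosome 5 (hg19), and its GENCODE canonical transcript has 14 exons and 449 codons. Of its 7 retained introns 4 are introns of that transcript. Intron 3 is 206 nt long (chr5:179048037-179048242), intron 7 is 56 nt (chr5:179044934-179044989), intron 10 is 92 nt (chr5:179043960-179044051) and intron 11 is 650 nt (chr5:179043220-179043869). The other 3 use splice sites that the canonical transcript does not. Intron 1 from a donor inside exon 1 is 471 nt (chr5:179050166-179050636). Intron 10 from a donor 9 nt inside exon 10 is 101 nt (chr5:179043960-179044060) and contains intron 10. The span from an outer donor of exon 10 to exon 12 is 802 nt (chr5:179043220-179044021) and contains exon 11. It also contains intron 11 and most of intron 10. The 4 introns of the canonical transcript are shown because the proteins of this family bind runs of G. Each is written 5′ to 3′ on the transcript strand with runs of 3 or more G in capitals.
HNRNPH1 intron 3: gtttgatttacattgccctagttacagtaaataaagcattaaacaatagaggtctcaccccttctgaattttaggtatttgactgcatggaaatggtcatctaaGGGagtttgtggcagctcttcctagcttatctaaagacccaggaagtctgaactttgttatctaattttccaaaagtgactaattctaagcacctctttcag
HNRNPH1 intron 7: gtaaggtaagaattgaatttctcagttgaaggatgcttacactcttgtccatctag
HNRNPH1 intron 10: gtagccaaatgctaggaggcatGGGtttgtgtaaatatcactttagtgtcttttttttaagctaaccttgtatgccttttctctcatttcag
HNRNPH1 intron 11, first 100 bases: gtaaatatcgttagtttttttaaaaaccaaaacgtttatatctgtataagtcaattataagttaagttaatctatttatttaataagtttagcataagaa
HNRNPH1 intron 11, last 100 bases: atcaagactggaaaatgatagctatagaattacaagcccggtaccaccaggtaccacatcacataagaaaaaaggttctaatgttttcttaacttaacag

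Runs of G were sparse in these introns. Intron 3 held 1 such run, intron 7 none, intron 10 held 1 and intron 11 held 6, or 0.485, 0, 1.09 and 0.923 per 100 nt, while intron 1 with the inner donor held 13, or 2.76 per 100 nt. Over the 4282 distinct introns of all tested retained-intron events 92.5% held at least 1 such run, with a median of 2.14 per 100 nt, and runs of 3 or more C on the same strand, counted as a plain comparison, were as common (93.5%, median 2.10). The median length of those introns was 263 nt. These are counts of letters on the transcript strand and say nothing about binding.

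All 4 canonical introns shift the reading frame if they stay in the transcript. The first in-frame stop began at base 72 of intron 3, base 27 of intron 7, base 63 of intron 10 and base 12 of intron 11, which would leave 108, 271, 393 and 406 of the 449 codons. From that stop to the last exon junction there would be 1229, 590, 260 and 779 bases.

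**Figure D1:**
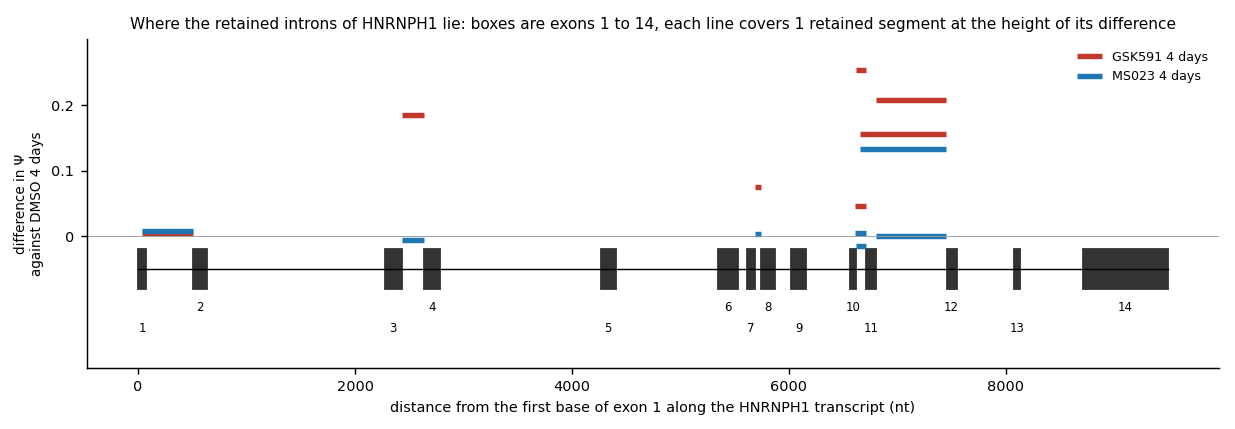
Map of HNRNPH1. The x axis is the distance from the first base of exon 1 along the transcript in nt, black boxes are exons 1 to 14, and each coloured line covers 1 retained segment at the height of its ΔΨ against DMSO at 4 days (red, GSK591 4 days; blue, MS023 4 days). Under GSK591 introns 3, 10 and 11 stand at 0.185, 0.254 and 0.207, and under MS023 the exon 10 to exon 12 span stands at 0.133 and intron 10 at -0.0143.

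Intron 11 had the most reads of the HNRNPH1 introns, 1791 to 6315 per library. In DMSO its Ψ was 0.0822, 0.103 and 0.0884 at 4 days and 0.0940, 0.0999 and 0.115 at 7 days. After GSK591 it was 0.219, 0.243 and 0.262 at 2 days, 0.287, 0.300 and 0.308 at 4 days and 0.295, 0.307 and 0.302 at 7 days. Every GSK591 library lay above every DMSO library, with ΔΨ of 0.150 ± 0.0139, 0.207 ± 0.00860 and 0.198 ± 0.00720 (adjusted p = 2.98e-09, 1.66e-14 and 1.31e-13).

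Intron 10 behaved alike in size. Its Ψ was 0.102, 0.112 and 0.102 in DMSO at 4 days and 0.104, 0.112 and 0.114 at 7 days. GSK591 libraries stood at 0.247, 0.278 and 0.282 after 2 days, 0.373, 0.352 and 0.353 after 4 days and 0.276, 0.269 and 0.263 after 7 days. The groups did not overlap and ΔΨ was 0.164 ± 0.0114, 0.254 ± 0.00765 and 0.159 ± 0.00480 (adjusted p = 1.77e-09, 7.47e-15 and 1.53e-11). Introns 10 and 11 are neighbours on either side of exon 11.

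Intron 3, far upstream of these, also rose. It had Ψ of 0.127, 0.120 and 0.120 in DMSO at 4 days and 0.0954, 0.119 and 0.0983 at 7 days. With GSK591 the values were 0.173, 0.229 and 0.193 at 2 days, 0.279, 0.319 and 0.326 at 4 days and 0.246, 0.254 and 0.241 at 7 days. No GSK591 library overlapped its DMSO group, and ΔΨ was 0.0761 ± 0.0166, 0.185 ± 0.0149 and 0.143 ± 0.00825 (adjusted p = 1.72e-05, 1.58e-12 and 3.68e-11).

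Intron 7, the shortest of them, changed least among these introns. Its DMSO libraries were at 0.0536, 0.0484 and 0.0250 at 4 days and 0.0342, 0.0399 and 0.0332 at 7 days, and its GSK591 libraries at 0.0590, 0.0961 and 0.0992 at 2 days, 0.126, 0.104 and 0.122 at 4 days and 0.0742, 0.0611 and 0.0600 at 7 days. The ΔΨ of 0.0424 ± 0.0156, 0.0750 ± 0.0110 and 0.0294 ± 0.00501 was called at each time (adjusted p = 0.00348, 2.21e-07 and 0.000446), and again the groups did not overlap.

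Intron 10 from the inner donor was counted as retained in almost all reads, and reads in intron 10 itself enter its inclusion count. Its mean Ψ was 0.948 ± 0.0118 in DMSO at 4 days and 0.994 ± 0.00267 after GSK591 for 4 days, and ΔΨ was 0.0333, 0.0459 and 0.0386 (adjusted p = 0.0165, 5.43e-05 and 0.00427). At 2 days that call was lost without GSK591 library a or without DMSO library a or c, with adjusted p of 0.0515 to 0.0814. Intron 1 from the inner donor was the only HNRNPH1 intron that was called in no comparison. Its 30 libraries ran from 0.0610 to 0.113, and ΔΨ under GSK591 was -0.0110 ± 0.00881, 0.00529 ± 0.0107 and -0.00268 ± 0.0106.

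**Figure D2:**
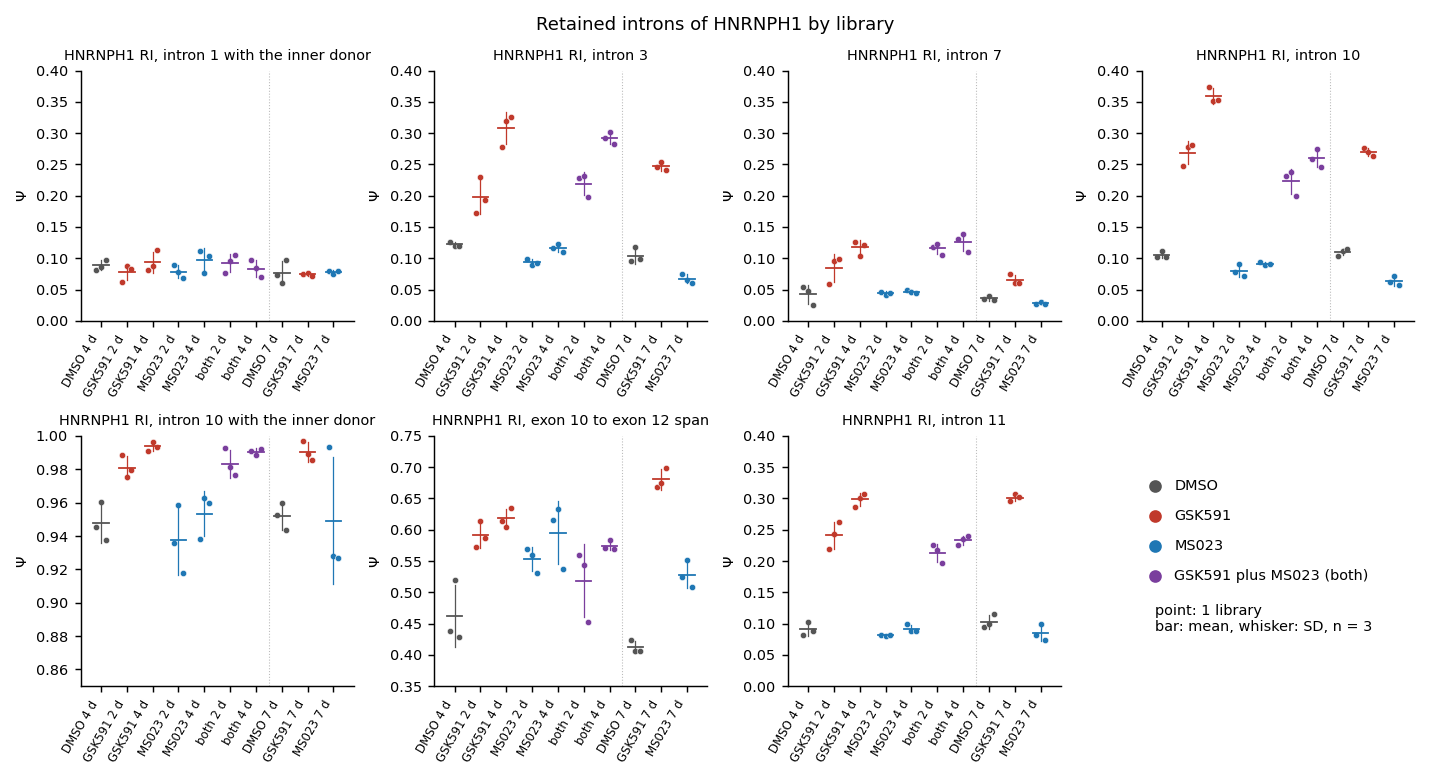
Ψ of the 7 HNRNPH1 retained introns in each library (points), with the group mean (horizontal bar) and SD (vertical line, n = 3); the dotted line parts the groups set against DMSO 4 days from those at 7 days. The vertical scale runs from 0 to 0.4 except for intron 10 with the inner donor and the exon 10 to exon 12 span, whose axes do not start at 0. In introns 3, 7, 10 and 11 every library with GSK591, alone or with MS023, lies above its DMSO group.

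Under MS023 the same introns stayed near DMSO or below it. Intron 10 stood at 0.0774, 0.0912 and 0.0713 at 2 days, 0.0936, 0.0887 and 0.0905 at 4 days and 0.0623, 0.0719 and 0.0569 at 7 days. Each MS023 library was below each DMSO library of its comparison, and the difference was called at 2 days (ΔΨ = -0.0252 ± 0.00669, adjusted p = 0.00279) and 7 days (-0.0463 ± 0.00529, adjusted p = 1.46e-06) but not at 4 days (-0.0143 ± 0.00348, adjusted p = 0.0861). The 2-day call was lost without MS023 library c (adjusted p = 0.0670). Intron 3 fell in the same 2 comparisons, with ΔΨ of -0.0290 ± 0.00341 at 2 days and -0.0366 ± 0.00847 at 7 days (adjusted p = 0.000407 and 2.45e-05), beside -0.00605 ± 0.00398 at 4 days. Intron 11 differed from DMSO by -0.0100 ± 0.00612, 0.000616 ± 0.00701 and -0.0180 ± 0.00964 at 2, 4 and 7 days. Its 7-day difference was called (adjusted p = 0.0246) although the groups overlapped, and the call was lost without MS023 library a or c or without DMSO library c (adjusted p = 0.0916 to 0.243). Intron 7 was not called under MS023, with ΔΨ of 0.00196, 0.00403 and -0.00786.

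With both inhibitors introns 3, 7, 10 and 11 were above DMSO at both times. Intron 11 was at 0.225, 0.217 and 0.197 at 2 days and 0.226, 0.234 and 0.240 at 4 days, with ΔΨ of 0.122 ± 0.0104 and 0.142 ± 0.00735 (adjusted p = 1.51e-12 and 1.63e-14). Intron 10 was at 0.231, 0.238 and 0.1999 at 2 days and 0.259, 0.275 and 0.246 at 4 days, with ΔΨ of 0.118 ± 0.0122 and 0.155 ± 0.00893 (adjusted p = 4.19e-11 and 9.67e-14). For intron 3 ΔΨ was 0.0966 and 0.170, and for intron 7 it was 0.0733 and 0.0842, all called.

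Setting the inhibitor groups directly against each other tests these differences without DMSO. GSK591 exceeded MS023 in 7 of 9 member introns at 2 days, 7 of 9 at 4 days and 8 of 9 at 7 days, and none was called lower. At 7 days the call in intron 10 with the inner donor was lost in 2 of 6 fits without 1 library (adjusted p up to 0.0710). Among all retained introns 34.2%, 44.8% and 39.4% differed, and 30.7%, 40.1% and 32.5% were higher with GSK591. In intron 11 the difference, GSK591 minus MS023, was 0.160 ± 0.0125, 0.207 ± 0.00699 and 0.216 ± 0.00798 (adjusted p = 4.12e-12, 4.65e-23 and 2.68e-32). In intron 10 it was 0.189 ± 0.0124, 0.268 ± 0.00711 and 0.206 ± 0.00579, and no library of one group overlapped the other. Of the other event types 6 of 47, 11 of 47 and 13 of 58 differed at 2, 4 and 7 days, beside 9.38%, 14% and 11.6% of all.

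At 4 days introns 10 and 11 of HNRNPH1 were lower with both inhibitors than with GSK591 alone. There both inhibitors minus GSK591 gave -0.0996 ± 0.0109 in intron 10 and -0.0650 ± 0.00733 in intron 11 (adjusted p = 2.12e-09 and 2.75e-08), and each was called in all 6 fits without 1 library. At 2 days intron 10 gave -0.0460 ± 0.0161 (adjusted p = 0.0467), a call kept in 1 of its 6 such fits and lost in the other 5 (adjusted p = 0.105 to 0.258). Intron 3 differed by 0.0206 ± 0.0196 at 2 days and -0.0149 ± 0.0157 at 4 days, neither called. In all, 1 of 9 member introns was called at 2 days (lower) and 4 of 9 at 4 days (3 lower, 1 higher), where 3.45% and 8.92% of all retained introns were called. By limma 0 of 9 were called at either time, with 0 at 2 days and 3 at 4 days at an unadjusted p under 0.05. Against MS023 alone, both inhibitors were higher in 7 of 9 introns at each time, beside 39.1% and 44% of all retained introns called.

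**Figure D3:**
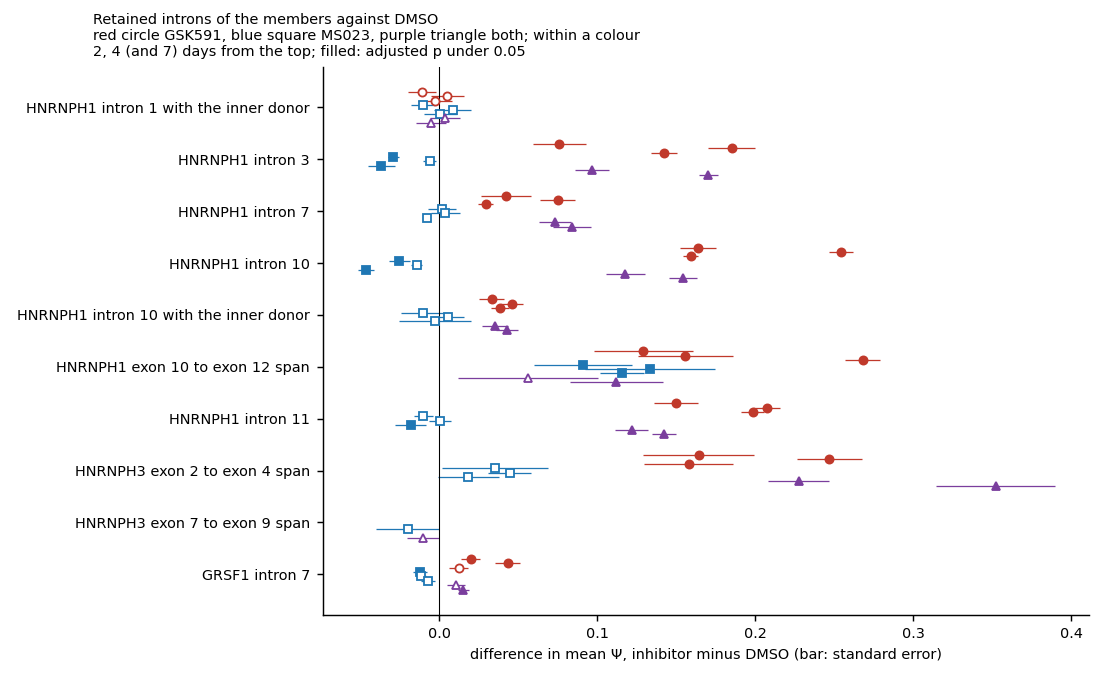
ΔΨ against DMSO of the members' 10 retained introns, with bars for the standard error of the difference. Red circles are GSK591, blue squares MS023 and purple triangles both inhibitors, in the order 2, 4 and 7 days from top to bottom within a colour, and filled symbols are called. HNRNPH3 with both inhibitors at 4 days lies farthest right, at 0.352, while intron 1 with the inner donor has open symbols in each comparison.

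The region from exon 10 to exon 12 of HNRNPH1 holds alternative donors in 2 nearly identical exons. The first 60 bases of exons 10 and 11 differ at 1 base, and their 90-base forms differ at 4 (95.6% the same). Both are shown with the first bases of the following intron, and capitals mark the GT of each annotated or listed donor.
HNRNPH1 exon 10 (chr5:179044010-179044111, reverse strand): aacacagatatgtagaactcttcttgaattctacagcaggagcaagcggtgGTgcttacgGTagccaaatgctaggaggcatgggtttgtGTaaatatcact
HNRNPH1 exon 11 (chr5:179043858-179043959, reverse strand): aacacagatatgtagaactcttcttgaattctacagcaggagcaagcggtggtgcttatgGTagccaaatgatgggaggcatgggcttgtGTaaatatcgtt

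The canonical transcript uses the middle donor of exon 10, which leaves 60 bases of exon, and the outer donor of exon 11, which leaves 90. Both exons thus carry donors 30 nt apart, and exon 10 has a further one 9 nt inside the middle donor. Because reads that join either exon to exon 12 can differ at a single base, the mapping of short reads between the 2 exons is uncertain, and the values below carry that limit. Coding sequence stays in frame in each case: exon 11 with the inner donor would give 439 codons, and exon 10 with the outer donor joined to exon 12 would give 429.

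The donors of exon 11 moved in opposite directions under the 2 inhibitors. Ψ here is the share that uses the outer donor, which keeps all 90 bases. In DMSO it was 0.918, 0.928 and 0.932 at 4 days and 0.962, 0.947 and 0.932 at 7 days. With MS023 it was 0.827, 0.824 and 0.828 at 2 days, 0.813, 0.826 and 0.836 at 4 days and 0.882, 0.859 and 0.876 at 7 days. All 9 MS023 libraries were below all 6 DMSO libraries. With GSK591 it was 0.952, 0.940 and 0.952 at 2 days, 0.986, 0.986 and 0.971 at 4 days and 0.985, 0.974 and 0.982 at 7 days, in each comparison above the DMSO libraries.

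The outer donor therefore fell with MS023, by ΔΨ of -0.0997 ± 0.00417, -0.101 ± 0.00775 and -0.0746 ± 0.0111 (adjusted p = 1.56e-24, 5.3e-16 and 2.7e-07), and rose with GSK591, by 0.0218 ± 0.00571, 0.0551 ± 0.00639 and 0.0333 ± 0.00922 (adjusted p = 0.00435, 7.53e-08 and 5.72e-06). The GSK591 call at 2 days was lost without DMSO library a (adjusted p = 0.0632). Directly, GSK591 minus MS023 was 0.122 ± 0.00417, 0.156 ± 0.00826 and 0.108 ± 0.00762 (adjusted p = 6.48e-19, 1.34e-98 and 3.98e-44). With both inhibitors the values were close to DMSO at 2 days (0.917, 0.928 and 0.919, ΔΨ = -0.00513 ± 0.00523, adjusted p = 0.601) and above it at 4 days (0.959, 0.952 and 0.951, ΔΨ = 0.0277 ± 0.00483, adjusted p = 0.000258). Both inhibitors differed from GSK591 alone by -0.0269 and -0.0274 and exceeded MS023 alone by 0.0946 and 0.128, all called. Reads per library for this event ran from 1056 to 3585. Of its 7 calls against DMSO limma called 1, GSK591 at 4 days (adjusted p = 0.0413). The inner donor of exon 11 is annotated in 1 transcript, which is marked for nonsense-mediated decay.

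A second donor event sets a form in which exons 10 and 11 are joined without splicing against exon 10 ending at its outer donor. Its Ψ, the share of the joined form, was 0.821, 0.836 and 0.806 in DMSO at 4 days and 0.797, 0.772 and 0.748 at 7 days. MS023 raised it to 0.888, 0.885 and 0.873 at 2 days, 0.888, 0.905 and 0.864 at 4 days and 0.872, 0.863 and 0.876 at 7 days. GSK591 lowered it to 0.755, 0.768 and 0.736 at 2 days and 0.739, 0.724 and 0.746 at 4 days. At 7 days the GSK591 libraries, at 0.767, 0.763 and 0.784, overlapped DMSO. The differences were 0.0607 ± 0.00998, 0.0648 ± 0.0148 and 0.0979 ± 0.0145 with MS023 (adjusted p = 5.82e-06, 3.21e-05 and 2.73e-06) and -0.0681 ± 0.0127, -0.0846 ± 0.0110 and -0.00108 ± 0.0154 with GSK591 (adjusted p = 3.98e-05, 2.89e-06 and 0.992). The 7-day DMSO libraries differed from DMSO at 4 days by -0.0483 (adjusted p = 0.0229). Limma called 0 of the 7 differences from DMSO that were called in this event.

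The exon 10 to exon 12 span shares its skipping junction with that event, since both are set against the outer donor of exon 10 joined to exon 12, so the 2 are not separate measurements. Exon 11 lies inside the span, and reads within exon 11 may enter its inclusion count, so its Ψ is not intron retention alone. Intron 11 and most of intron 10 also lie inside the span, and their reads may enter that count too. With MS023 at 2 days the span had 1072 to 1240 inclusion reads per library, against 1334 to 1741 in DMSO at 4 days. Its skipping reads were 145 to 153, against 252 to 278. A higher Ψ thus came there with fewer reads of both kinds. The span was at 0.438, 0.520 and 0.429 in DMSO at 4 days and 0.424, 0.406 and 0.407 at 7 days. It was called higher with MS023 at 2 days (0.569, 0.559 and 0.532, ΔΨ = 0.0910 ± 0.0310), 4 days (0.615, 0.633 and 0.538, ΔΨ = 0.133 ± 0.0412) and 7 days (0.525, 0.552 and 0.508, ΔΨ = 0.116 ± 0.0141), with adjusted p of 0.0274, 0.00783 and 0.000849. The 2-day call was lost without any 1 of the 3 MS023 libraries or without DMSO library a or c (adjusted p = 0.0904 to 0.142), and the 4-day call without MS023 library a or b (0.0687 to 0.0980). With GSK591 it was also higher, by 0.129, 0.156 and 0.268 (adjusted p = 0.000501, 5.25e-06 and 1.32e-09), so that it was the only HNRNPH1 intron event called in the same direction with each inhibitor. With both inhibitors at 2 days it was not called (ΔΨ = 0.0562 ± 0.0443, adjusted p = 0.093), but it was without DMSO library b or without library c of the treated group (adjusted p = 0.00722 to 0.0141), and at 4 days it was (0.112 ± 0.0292, adjusted p = 0.000138).

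Exon 5 of HNRNPH1 is 139 nt long (chr5:179046270-179046408) and is part of 14 annotated protein-coding transcripts. It has a counterpart of the same length in HNRNPH3, exon 3 (chr10:70097615-70097753, forward strand), and 126 of the 139 bases are the same (90.6%). Both are shown, with the bases that differ in capitals, because exon 5 was called with GSK591 and its counterpart was not, a difference that was not itself tested.
HNRNPH1 exon 5: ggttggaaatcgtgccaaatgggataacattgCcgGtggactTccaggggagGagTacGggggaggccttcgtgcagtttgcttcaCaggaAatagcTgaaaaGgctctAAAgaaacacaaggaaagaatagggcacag
HNRNPH3 exon 3: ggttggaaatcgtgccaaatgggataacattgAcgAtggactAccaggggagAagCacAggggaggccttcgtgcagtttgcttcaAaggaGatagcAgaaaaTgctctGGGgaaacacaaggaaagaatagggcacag

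GSK591 lowered the inclusion of HNRNPH1 exon 5. Its Ψ was 0.949, 0.945 and 0.954 in DMSO at 4 days and 0.941, 0.939 and 0.955 at 7 days. With GSK591 it was 0.893, 0.877 and 0.870 at 2 days, 0.865, 0.883 and 0.840 at 4 days and 0.844, 0.879 and 0.874 at 7 days. No GSK591 library reached the DMSO range, and ΔΨ was -0.0696 ± 0.00721, -0.0866 ± 0.0127 and -0.0795 ± 0.0119 (adjusted p = 2.05e-11, 2.17e-14 and 2.44e-24). Skipping this exon shifts the frame and would leave 184 codons, with 656 bases from the stop to the last junction.

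With MS023 exon 5 differed from DMSO by 0.00401 ± 0.00642 at 2 days and -0.000153 ± 0.00295 at 4 days, neither called. At 7 days it rose by 0.0175 ± 0.00511 (adjusted p = 0.0133), a call lost in 5 of the 6 fits without 1 library (adjusted p = 0.138 to 0.222). With both inhibitors the exon stood between the 2, at 0.910, 0.910 and 0.906 at 2 days and 0.924, 0.910 and 0.929 at 4 days (ΔΨ = -0.0411 ± 0.00283 and -0.0286 ± 0.00640, adjusted p = 6.19e-08 and 0.000185), which was higher than with GSK591 alone by 0.0285 and 0.0581 (adjusted p = 0.00809 and 2.51e-10). A listed form of exon 5 that begins at an inner acceptor, 92 nt long, uses the same skipping junction and so repeats that measurement, with ΔΨ of -0.151, -0.170 and -0.141 under GSK591. Limma called none of the exon 5 differences from DMSO.

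An exon of 134 nt inside intron 2 (chr5:179048844-179048977), present in 2 transcripts marked for nonsense-mediated decay, rose from a very low level. It was picked out after its values were seen, since its change lies under the size set for naming. In DMSO its Ψ was 0.00460, 0.00462 and 0.00639 at 4 days and 0.00935, 0.00699 and 0.00304 at 7 days. With GSK591 it was 0.0199, 0.0206 and 0.0221 at 2 days, 0.0325, 0.0305 and 0.0378 at 4 days and 0.0157, 0.0224 and 0.0206 at 7 days, and with both inhibitors 0.0201, 0.0154 and 0.0261 at 2 days and 0.0420, 0.0382 and 0.0393 at 4 days. In all 5 groups every library lay above DMSO, and ΔΨ was 0.0157, 0.0284 and 0.0131 for GSK591 and 0.0153 and 0.0346 for both (adjusted p = 5.84e-09, 1.99e-15, 8.65e-11, 3.48e-09 and 2.57e-16). Limma called 1 of these 5 differences, both inhibitors at 4 days (adjusted p = 0.0235). With MS023 the differences were -0.00184, -0.00119 and -0.00292, none called. Its inclusion would leave 40 codons, with 1361 bases from the stop to the last junction.

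**Figure D4:**
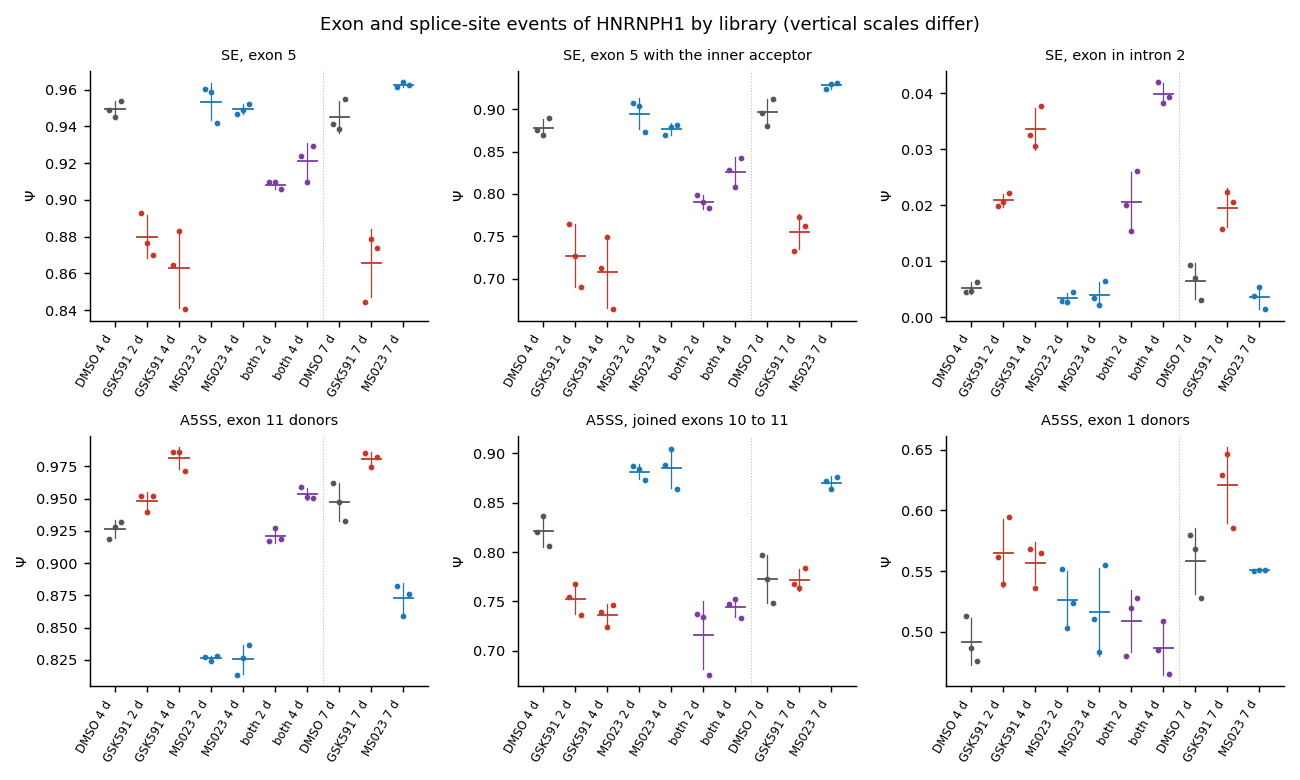
Ψ of 6 exon and splice-site events of HNRNPH1 in each library (points), with group mean (horizontal bar) and SD (vertical line, n = 3); the vertical scales differ and do not start at 0. Exon 5 lies lowest with GSK591, between 0.840 and 0.893, and the exon 11 donors lie lowest with MS023, between 0.813 and 0.882.

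The donors of exon 1 also differed with GSK591. Ψ is here the share of the longer exon 1, whose donors lie 41 nt apart, and it was 0.514, 0.487 and 0.476 in DMSO at 4 days and 0.561, 0.539 and 0.595 after 2 days of GSK591 and 0.568, 0.536 and 0.565 after 4 days. The groups did not overlap (ΔΨ = 0.0731 ± 0.0197 and 0.0645 ± 0.0150, adjusted p = 0.00319 and 0.0037). At 7 days ΔΨ was 0.0620 ± 0.0239 (adjusted p = 0.00942), which was lost without GSK591 library a or b or DMSO library b or c (0.0820 to 0.180). DMSO at 7 days exceeded DMSO at 4 days by a like amount, 0.0666 ± 0.0192 (adjusted p = 0.0204), and neither MS023 nor both inhibitors gave a call. Limma called 0 of the 3 GSK591 differences.

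Among the HNRNPH1 pairs of mutually exclusive exons 3 passed the size set for naming. For exon 3 against exon 4, Ψ (the share with exon 3) was 0.488 ± 0.0342 in DMSO at 4 days, and it rose with GSK591 at 4 days (0.0730, adjusted p = 0.000344) and with both inhibitors (0.0701 and 0.0777, adjusted p = 0.000157 and 0.000203). DMSO at 7 days was higher than DMSO at 4 days by 0.139 (adjusted p = 1.79e-06), more than any of these. Exon 2 against exons 3 to 4 joined with their intron, listed at 7 days only, stood at 0.751, 0.711 and 0.699 in DMSO and 0.572, 0.548 and 0.514 with GSK591 (ΔΨ = -0.176 ± 0.0231, adjusted p = 1.44e-06). The joined form holds intron 3, but reads on the outer junctions of exons 3 and 4 may enter its count whether or not that intron was removed. The same joined form against exon 7 rose with both inhibitors at 2 days by 0.0784 ± 0.0151 (adjusted p = 2.48e-05). Exon 13, noticed after its values were seen, fell with both inhibitors at 2 days, from 0.867, 0.864 and 0.868 to 0.809, 0.805 and 0.838 (ΔΨ = -0.0494 ± 0.0106, adjusted p = 1.25e-06). Limma called none of the differences from DMSO in these pairs or in exon 13. HNRNPH1 had 43 distinct alternative segments outside its introns, of which 13 were called in at least 1 comparison and 8 met the rule for naming. The matching share over the segments of all genes is not given here, so whether that count is high cannot be told.

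HNRNPH3 lies on the forward strand of chromosome 10. Its main retained segment runs from exon 2 to exon 4 over 1169 nt (chr10:70097091-70098259), holds 21 runs of G (1.80 per 100 nt) and contains exon 3, whose reads may enter its inclusion count. It is set against exon 2 joined to exon 4, a form without exon 3, so its Ψ is not the share of transcripts that keep the segment. Skipping reads were 189 to 220 per library in DMSO and 88 to 153 with both inhibitors at 4 days. Inclusion reads were 295 to 437 and 1003 to 1179. The segment had 0.158, 0.183 and 0.138 in DMSO at 4 days and 0.216, 0.276 and 0.264 at 7 days. GSK591 raised it to 0.293, 0.389 and 0.291 at 2 days, 0.384, 0.399 and 0.437 at 4 days and 0.376, 0.449 and 0.405 at 7 days. With both inhibitors it reached 0.403, 0.401 and 0.359 at 2 days and 0.466, 0.581 and 0.490 at 4 days. None of these groups overlapped its DMSO group.

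The differences in the HNRNPH3 segment were 0.164 ± 0.0352, 0.247 ± 0.0205 and 0.158 ± 0.0280 with GSK591 (adjusted p = 6.21e-05, 8.67e-09 and 0.000234) and 0.228 ± 0.0194 and 0.352 ± 0.0374 with both (adjusted p = 6.24e-09 and 7.88e-11). MS023 alone gave 0.0353 ± 0.0336, 0.0448 ± 0.0136 and 0.0185 ± 0.0191, none called. At 4 days both inhibitors exceeded GSK591 alone by 0.105 ± 0.0384 (adjusted p = 0.0245), opposite in sign to HNRNPH1 introns 10 and 11, but that call was lost without GSK591 library a or b or without library b of both inhibitors. DMSO at 7 days exceeded DMSO at 4 days by 0.0922 ± 0.0224 (adjusted p = 0.00601), which was lost without DMSO 7-day library c (adjusted p = 0.0676) and was the only one of 10 member introns called between the controls, where 8.7% of all retained introns were called. The second HNRNPH3 segment, exon 7 to exon 9 (chr10:70101067-70101515, 449 nt), was listed in 2 tables only and stood between 0.940 and 1 in all 12 libraries.

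Exon 3 of HNRNPH3, the counterpart of HNRNPH1 exon 5, was called in no comparison of GSK591 alone with DMSO. It was noticed after its values were seen. Its Ψ was 0.890, 0.885 and 0.880 in DMSO at 4 days and 0.885, 0.916 and 0.888 after 2 days of GSK591 and 0.903, 0.895 and 0.896 after 4 days, with ΔΨ of 0.0110 ± 0.0104, 0.0129 ± 0.00381 and 0.0118 ± 0.00449 at 2, 4 and 7 days, none called. It was called higher with both inhibitors, by 0.0316 and 0.0439 (adjusted p = 0.00033 and 1.02e-05), and with MS023 at 2 and 4 days by 0.0257 and 0.0217 (adjusted p = 0.0085 and 0.0417). The MS023 call at 2 days was lost in 5 of 6 fits without 1 library, and that at 4 days in all 6. Limma called 0 of these 4 differences from DMSO. Between the controls, DMSO at 7 days exceeded DMSO at 4 days by 0.0361 (adjusted p = 0.000483). Skipping it would leave 71 of 346 codons. The difference between the 2 genes was not tested.

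Exon 4 of HNRNPH3 has 2 donors 45 nt apart, and their use moved the same way with each inhibitor. The end of the exon and the first bases of the intron are shown with the GT of each donor in capitals (chr10:70098388-70098456).
HNRNPH3 exon 4, end: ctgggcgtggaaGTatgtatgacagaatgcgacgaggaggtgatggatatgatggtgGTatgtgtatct

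Ψ is the share that uses the outer donor, and both forms keep the frame, with 346 codons for the outer and 331 for the inner donor. It was 0.656, 0.697 and 0.725 in DMSO at 4 days and 0.785, 0.802 and 0.791 at 7 days. With GSK591 it was 0.758, 0.746 and 0.780 at 2 days, 0.777, 0.799 and 0.809 at 4 days and 0.869, 0.887 and 0.842 at 7 days, and with MS023 0.761, 0.778 and 0.773 at 2 days, 0.821, 0.811 and 0.821 at 4 days and 0.856, 0.874 and 0.862 at 7 days. Both inhibitors gave 0.810, 0.825 and 0.801 at 2 days and 0.874, 0.847 and 0.868 at 4 days. All 8 groups lay wholly above their DMSO group.

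The event was called in all 8 comparisons, with ΔΨ of 0.0692, 0.103 and 0.0732 for GSK591, 0.0784, 0.125 and 0.0715 for MS023 and 0.120 and 0.170 for both. Limma called 1 of these 8, both inhibitors at 4 days (adjusted p = 0.0475). The call for GSK591 at 2 days was lost without DMSO library a (adjusted p = 0.0514). GSK591 minus MS023 was -0.00925 ± 0.0113, -0.0223 ± 0.0101 and 0.00179 ± 0.0141, none called, while both inhibitors exceeded GSK591 alone by 0.0506 and 0.0677 and MS023 alone by 0.0414 and 0.0454, all called. DMSO at 7 days also exceeded DMSO at 4 days, by 0.1003 ± 0.0206 (adjusted p = 5.69e-06). The part of time in culture in the 2-day differences cannot be told apart.

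Mutually exclusive pairs of HNRNPH3 exons followed. Exon 2 against exon 4 (Ψ the share with exon 2) was 0.519, 0.454 and 0.468 in DMSO at 4 days and fell with GSK591, by ΔΨ of -0.104 ± 0.0313, -0.153 ± 0.0224 and -0.115 ± 0.00607, and with both inhibitors, by -0.104 ± 0.0216 and -0.176 ± 0.0209, but was not called with MS023 (-0.0335, -0.0321 and -0.00821). The 2-day GSK591 call (adjusted p = 0.0258) was lost without any 1 of the DMSO libraries or without GSK591 library b (0.0585 to 0.163). The 7-day controls differed from those at 4 days by -0.138 (adjusted p = 3.52e-06). Exon 2 against exon 4 with the inner donor rose with MS023 at 4 and 7 days (0.104 and 0.0877, adjusted p = 0.000112 and 0.000625) and with both inhibitors at 4 days (0.0592, adjusted p = 0.0276, lost without any 1 of 5 of the 6 libraries). Exon 4 with the inner donor against exon 5 fell with both inhibitors (-0.0418 and -0.0587, adjusted p = 0.0049 and 0.000517), and the 7-day controls differed from those at 4 days by -0.0737. Exon 2 against exon 3 was listed at 2 days with GSK591 only (-0.0596, adjusted p = 0.0198, lost in 5 of 6 fits without 1 library). These events share exons and junctions with the donor event of exon 4 and with the segment from exon 2 to exon 4. Of their called differences from DMSO limma called 1, exon 2 against exon 4 with both inhibitors at 4 days (adjusted p = 0.0246).

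HNRNPF, whose protein is close to hnRNP H1, had no retained intron in the tables and few events. Of its 11 events, all tested, 2 were called and 1 of its 3 alternative segments met the rule for naming. This was exon 2 against exon 3 on the reverse strand of chromosome 10 (exon 3 at chr10:43890078-43890136). Its Ψ was 0.132, 0.139 and 0.134 in DMSO at 4 days and 0.0839, 0.0768 and 0.0899 with both inhibitors at 4 days. The groups did not overlap and ΔΨ was -0.0513 ± 0.00428 (adjusted p = 0.00437), a call that limma shared. The other HNRNPF call was a further event, lower with GSK591 at 7 days by less than the size set for naming. For these HNRNPF counts too the matching share over all genes is not given. At 7 days the pair was at 0.185, 0.183 and 0.208 with GSK591 against 0.184, 0.169 and 0.160 in DMSO, which was not called (adjusted p = 0.482). In this pair DMSO at 7 days exceeded DMSO at 4 days by 0.0362 (adjusted p = 0.0329).

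GRSF1 lies on the reverse strand of chromosome 4 and had 1 retained intron, intron 7 (chr4:71691149-71691840, 692 nt, 4 runs of G). Its first 100 bases are shown, with the run of G in capitals, since the first in-frame stop begins at base 49 and would leave 435 of 480 codons.
GRSF1 intron 7, first 100 bases: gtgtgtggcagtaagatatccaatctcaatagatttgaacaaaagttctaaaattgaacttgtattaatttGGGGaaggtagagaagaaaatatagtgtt

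In DMSO this intron was at 0.0353, 0.0439 and 0.0427 at 4 days and 0.0401, 0.0391 and 0.0462 at 7 days. GSK591 libraries were at 0.0499, 0.0670 and 0.0651 at 2 days, 0.0835, 0.0718 and 0.0967 at 4 days and 0.0651, 0.0491 and 0.0482 at 7 days, and MS023 libraries at 0.0348, 0.0289 and 0.0218 at 2 days, 0.0302, 0.0268 and 0.0314 at 4 days and 0.0310, 0.0428 and 0.0302 at 7 days. GSK591 was thus above its DMSO group in each comparison, and MS023 was below it at 2 and 4 days and overlapped it at 7 days. The rise with GSK591 was called at 2 days (ΔΨ = 0.0200 ± 0.00604, adjusted p = 0.0107) and 4 days (0.0433 ± 0.00766, adjusted p = 2.26e-06) but not at 7 days (0.0123 ± 0.00591, adjusted p = 0.0866). The 2-day call was lost without DMSO library a or GSK591 library b (0.0549 to 0.0672).

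With MS023 GRSF1 intron 7 was called lower at 2 days (-0.0122 ± 0.00460, adjusted p = 0.0478), which was lost without MS023 library b or c or DMSO library b or c (0.0733 to 0.315), and missed the threshold at 4 days (-0.0112 ± 0.00300, adjusted p = 0.0513). Both inhibitors gave 0.0108 ± 0.00572 at 2 days and 0.0154 ± 0.00333 at 4 days (adjusted p = 0.0798 and 0.00577), and at 4 days differed from GSK591 alone by -0.0280 (adjusted p = 0.000615). Outside this intron 1 of 59 tests of GRSF1 events against DMSO was called, exon 9 with both inhibitors at 2 days (ΔΨ = -0.0212 ± 0.00837, adjusted p = 0.0287). It was lost in each of the 6 fits without 1 library, and 5 of the 59 tests had an unadjusted p under 0.05.

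**Figure D5:**
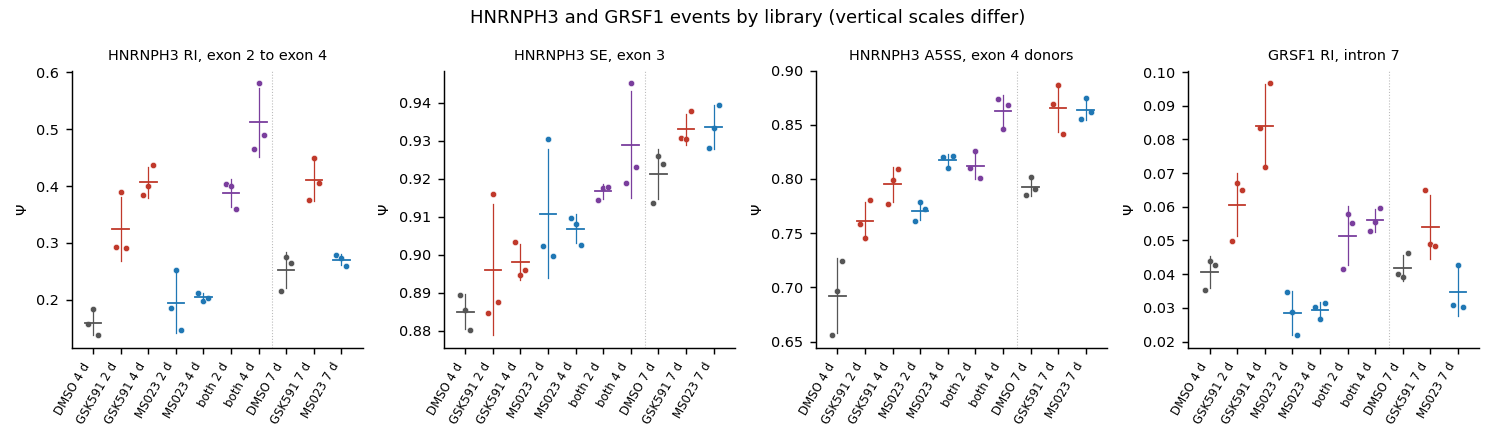
Ψ of 3 HNRNPH3 events and of GRSF1 intron 7 in each library (points), with group mean (horizontal bar) and SD (vertical line, n = 3); the vertical scales differ and do not start at 0. The HNRNPH3 segment from exon 2 to exon 4 reaches 0.466 to 0.581 with both inhibitors at 4 days, and every inhibitor group lies above its DMSO group in the exon 4 donors.

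RefSeq lists 3 pseudogenes of HNRNPH1, 1 of HNRNPH3 and 1 of HNRNPF, and none of GRSF1. Spliced reads of the first 3 genes can match such copies, and how the authors' alignment shared them was not tested, so their values carry that limit.

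Genes other than the 4 members were counted beside these values. Of 5 genes with the same kind of RNA-binding domain (HNRNPH2, ESRP1, ESRP2, RBM12 and RBM12B), no retained intron could be tested. From 2 of them 5 to 8 skipped exons were tested in each comparison. They gave 1 call over the 8 comparisons, with MS023 at 7 days. Of 7 genes whose splicing is known to involve hnRNP H or F (BCL2L1, ARAF, MST1R, MADD, CHTOP, TCF3 and EWSR1), 9 or 10 retained introns of 3 genes could be tested. With GSK591 2, 7 and 6 of these were called at 2, 4 and 7 days, of which 2, 6 and 5 were higher, with median ΔΨ of 0.0381, 0.0541 and 0.0854, beside 26.4%, 38.2% and 27.9% of all retained introns called. MS023 gave 4, 2 and 4 calls, of which 3, 1 and 3 were lower, with medians of -0.0512, -0.0211 and -0.0336. Among all retained introns 5.65%, 7.17% and 11.4% were called with MS023, and 4.21%, 5.6% and 9.49% were called lower. Both inhibitors gave 4 and 6 calls, 3 and 6 of them higher, with medians of 0.0378 and 0.103. Among all retained introns 34.7% and 39.7% were called with both, and 29.7% and 33.6% were called higher. Of the skipped exons of 6 of these genes 5 of 80, 5 of 85 and 3 of 59 were called with GSK591. With MS023 it was 7 of 90, 6 of 83 and 10 of 69, and with both 5 of 76 and 13 of 77. Calls went in both directions in each comparison. Among all skipped exons 5508 of 76941, 8470 of 79993 and 6020 of 70375 were called with GSK591. The counts over all were 2880 of 78541, 3369 of 78780 and 3560 of 71885 with MS023. With both inhibitors they were 11180 of 81079 and 11736 of 80463.

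The introns whose differences from DMSO were most like those of HNRNPH1 intron 11 were taken by Euclidean distance over the 8 values of ΔΨ, among 3537 retained introns tested in all 8 comparisons. They lay in KIAA0100 (distance 0.0490), ZFC3H1 (0.0494), PLOD3 (0.0545), SETDB1 (0.0569) and NEURL4 (0.0637), against a median distance of 0.357 over introns of other genes. The comparisons share DMSO libraries, and the likeness is a description.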

How the data were processed

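Poly(A)-RNA libraries of A549 cells were used, 30 in 10 groups of 3 as the labels give them, and 66 of the 96 samples of the series were not analysed here. The authors deposited 8 tables of splicing events made with rMATS on hg19, each setting an inhibitor group against DMSO, which hold counts of reads on splice junctions and on the segments themselves that include or skip each event, and the effective length of each form. The submitters' processing notes name Trim Galore 0.6.5, STAR 2.4.2a, Picard 2.3.0 and deepTools 3.3.1. The deposited p-values, inclusion levels and their differences hold the study's own comparisons and were not used. Each cell of counts lists 3 libraries without naming them, so they are called a, b and c.

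Ψ was computed from the deposited counts divided by effective length. A quasi-binomial model compared the 3 libraries of each group, with dispersions moderated over all events of a type (limma 3.58.1, R 4.3.3) and never below 1, an F test and Benjamini-Hochberg adjustment within event type and comparison. Events with at least 10 reads in every library were tested, and an adjusted p under 0.05 was called. The tests were checked on simulated data. Alternatives were a minimum of 20 reads or none, limma on log2 odds with 0.5 added to each count, adjustment over all event types, leaving out each library, and Ψ without the length correction. Files were read with data.table (version 1.17.8) and pandas 2.3.3 in Python 3.11.15, and drawn with matplotlib 3.10.9.

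Every retained intron of the 4 genes is named. Of the other types a segment is named where its event with the most reads was called against DMSO with an absolute ΔΨ of at least 0.05, with at most 8 segments a gene. HNRNPH1 exon 13 and the exon in intron 2, HNRNPH3 exon 3 and GRSF1 exon 9 were chosen after their values were seen. The genes and lists were chosen with earlier results of these data known. Sequences were read from the hg19 genome.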

Additional observations from a re-analysis of the deposited data

Results flagged for a closer look

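The difference between GSK591 and MS023, tested directly between their libraries, was called in 7 member introns at 2 days, 7 at 4 days and 8 at 7 days, each higher with GSK591. In the donors of HNRNPH1 exon 11 the share of the outer donor was higher with GSK591 than with MS023 by 0.122 at 2 days, 0.156 at 4 days and 0.108 at 7 days. In each of these comparisons the groups lay on opposite sides of DMSO. This direct donor difference was tested by the quasi-binomial model only, without limma.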

How the results depend on the processing

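No paired analysis was possible because the count columns carry no library names or replicate numbers. By limma on log2 odds the member events called against DMSO numbered 4, 9 and 8 with GSK591 at 2, 4 and 7 days (18, 18 and 19 by the quasi-binomial model), 0, 0 and 0 with MS023 (8, 8 and 10) and 6 and 13 with both inhibitors at 2 and 4 days (26 and 25). It called 0 introns between both inhibitors and GSK591 at 2 days and 0 at 4 days (1 and 4), and 0 between DMSO at 7 and 4 days (1). The cause was not tested. Leaving out 1 library gave 12 to 17, 18 to 19 and 17 to 18 calls with GSK591, 4 to 8, 5 to 8 and 7 to 10 with MS023, and 20 to 28 and 21 to 24 with both. The fewest for MS023 came without MS023 library c at 2 days (4, and 5 without b) and without library a or b at 4 days (5 each). Both inhibitors against GSK591 gave 0 to 3 introns at 2 days and 3 to 4 at 4 days, and DMSO at 7 against 4 days 0 to 2. A minimum of 20 reads left each of these counts within 1.5 times, as did no minimum and adjustment over all event types for the 8 counts against DMSO, the ones for which they were run. No named difference reversed under these settings. Without the length correction 46 of 46 called intron differences kept their direction, at 0.425 to 4.22 times the size. Each group had 3 libraries, library identity is unknown, and reads within an exon inside a retained span cannot be told from intron reads.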
